A study of Homo sapiens with 18 samples.

Results

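The genes of human mitochondrial DNA were taken as the rows of the raw count table whose Ensembl identifier, without its version, maps to a symbol that begins with MT-. There were 37 such genes among 35044 in all, and each of the 37 carried the same versioned identifier in GENCODE release 29 (GRCh38). They comprise 13 messenger RNA (mRNA) genes, 2 ribosomal RNA (rRNA) genes and 22 transfer RNA (tRNA) genes. Of the mRNAs, 12 belong to the heavy-strand transcript and MT-ND6 alone belongs to the light-strand transcript, both rRNAs belong to the heavy-strand transcript, and the tRNAs divide into 14 of the heavy-strand and 8 of the light-strand transcript. In all, 33 genes had enough counts to be tested, namely the 13 mRNAs, the 2 rRNAs and 18 tRNAs, and MT-TF, MT-TA, MT-TW and MT-TS1 did not.

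The libraries are labelled as coming from 2 derivatives of HCC1937, a breast cancer cell line with mutated BRCA1. HCC1937-EV carries an empty vector and HCC1937-OE-BRCA1 overexpresses wild-type BRCA1 (hereafter EV and OE). Each was sequenced untreated (0 h) and at 12 h and 24 h of exposure to olaparib, an inhibitor of the PARP enzymes given at 10 µmol/L, with 3 libraries per condition and 18 in all, at 15081973 to 17571922 counts per library (median 16077300). In the sample labels, even libraries titled 0 h carry olaparib in the treatment field and EV carries WT in the genotype field, so condition was taken from the titles. Nothing in the labels says that the 3 libraries of a condition came from separate cultures, so p-values measure the spread between these libraries, which may be technical.

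Mitochondrial DNA is a small circle present in many copies per cell, and both of its strands are transcribed over nearly their whole length into long precursors. The tRNAs lie between the other genes, and excision of the tRNAs releases the mRNAs and rRNAs. The mRNAs encode core subunits of respiratory complexes I, III and IV and of ATP synthase, and the rRNAs and tRNAs serve the mitochondrial ribosome that translates them. Transcripts of the 2 strands are complementary and can anneal into double-stranded RNA, which the mitochondrial helicase SUPV3L1 and the exoribonuclease PNPT1 normally remove.

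Before any comparison of the lines, the labels were set against genes that mark them. BRCA1 had 126, 111 and 117 CPM (counts scaled to the library size after TMM normalization) in untreated EV and 166, 122 and 127 CPM in untreated OE, which overlapped (log2 fold change 0.24 ± 0.11 (SE), adjusted p = 0.0654 by edgeR's quasi-likelihood test). At 24 h BRCA1 was higher in OE (0.77 ± 0.11) without overlap. The epithelial markers EPCAM (0 to 1 count) and CDH1 (5 to 20 counts) and the basal keratins KRT5 and KRT14 (0 to 2 counts each) were at or near 0 in the libraries labelled EV, whereas EPCAM had 4005 to 5727 counts in those labelled OE. KRT8, KRT18 and EGFR were present in both. Of the summed fibroblast list, EV libraries had 97.1 to 153 CPM, most of it COL1A1, and OE libraries 6.96 to 12.4 CPM, while COL1A2, COL3A1 and DCN stayed near 0 in both. Of the leukocyte markers, CD14 had 4 to 12 counts in EV and 511 to 1398 counts in OE libraries, and PTPRC had none in EV. What part such differences have in the mitochondrial values was not tested.

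The correlation of log2 CPM over genes was 0.728 to 0.753 between libraries of different lines and 0.981 to 0.991 within a condition. The libraries labelled EV therefore went against their label in EPCAM, CDH1, KRT5 and KRT14, though not in KRT8 and KRT18. All that follows names libraries by their labels. In comparisons between the lines, BRCA1 and every other difference between these cells cannot be told apart, whereas the comparisons of olaparib with 0 h stay within 1 line.

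The tRNA genes on which the results below turn are shown first, as DNA letters 5′ to 3′ on the coding strand, read from the GENCODE release 29 transcripts of GRCh38, with the anticodon in capitals. MT-TL1, MT-TY and MT-TH were called after 24 h of olaparib in EV, MT-TL2 differed between the lines in its response, and MT-TV, MT-TE and MT-TT differed most between the untreated lines.
MT-TL1 (leucine, chrM:3230-3304, plus strand): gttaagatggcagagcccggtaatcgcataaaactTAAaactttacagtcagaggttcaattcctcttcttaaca
MT-TY (tyrosine, chrM:5826-5891, minus strand): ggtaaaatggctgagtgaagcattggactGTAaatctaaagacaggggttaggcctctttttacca
MT-TH (histidine, chrM:12138-12206, plus strand): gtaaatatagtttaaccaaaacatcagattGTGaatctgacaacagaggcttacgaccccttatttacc
MT-TL2 (leucine, chrM:12266-12336, plus strand): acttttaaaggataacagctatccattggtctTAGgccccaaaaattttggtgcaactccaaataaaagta
MT-TV (valine, chrM:1602-1670, plus strand): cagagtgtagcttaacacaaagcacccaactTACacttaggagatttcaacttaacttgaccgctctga
MT-TE (glutamate, chrM:14674-14742, minus strand): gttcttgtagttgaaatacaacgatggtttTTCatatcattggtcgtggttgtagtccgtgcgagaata
MT-TT (threonine, chrM:15888-15953, plus strand): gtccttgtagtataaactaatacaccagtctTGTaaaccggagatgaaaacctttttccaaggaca

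Neighbouring genes share bases at 5 places, of which 2 lie between mRNAs that are carried on 1 molecule. MT-ATP8 and MT-ATP6 share 46 bases and MT-ND4L and MT-ND4 share 7, printed below in capitals with 10 bases on either side, because MT-ND4L and MT-ND4 are compared further on. Reads over a shared stretch fit either gene, and the sources used here do not give how they were counted.
MT-ND4L/MT-ND4 (chrM:10750-10776, plus strand): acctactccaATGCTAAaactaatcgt

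Counts on mitochondrial DNA genes took 8.33%, 7.10% and 7.66% of the untreated EV libraries, 7.87%, 5.55% and 5.43% at 12 h and 5.80%, 5.81% and 5.86% at 24 h. The EV libraries at 24 h all lay below the untreated ones, and 1 library at 12 h lay among the untreated ones. In OE the shares were 5.66%, 5.33% and 4.99% at 0 h, 5.47%, 5.64% and 5.57% at 12 h and 5.77%, 5.87% and 6.28% at 24 h, and those at 24 h all lay above those at 0 h. The mRNAs made up most of these counts in every library, and the rRNAs took 4.42% to 6.51% of them in EV and 12.4% to 17.9% in OE. The mRNA share had a mean of 7.31% at 0 h and 5.46% at 24 h in EV, without overlap, while the rRNA share was 0.366% and 0.340% with overlapping libraries. In bulk RNA, fewer cells of a kind and less of this RNA per cell cannot be told apart.

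**Figure D1:**
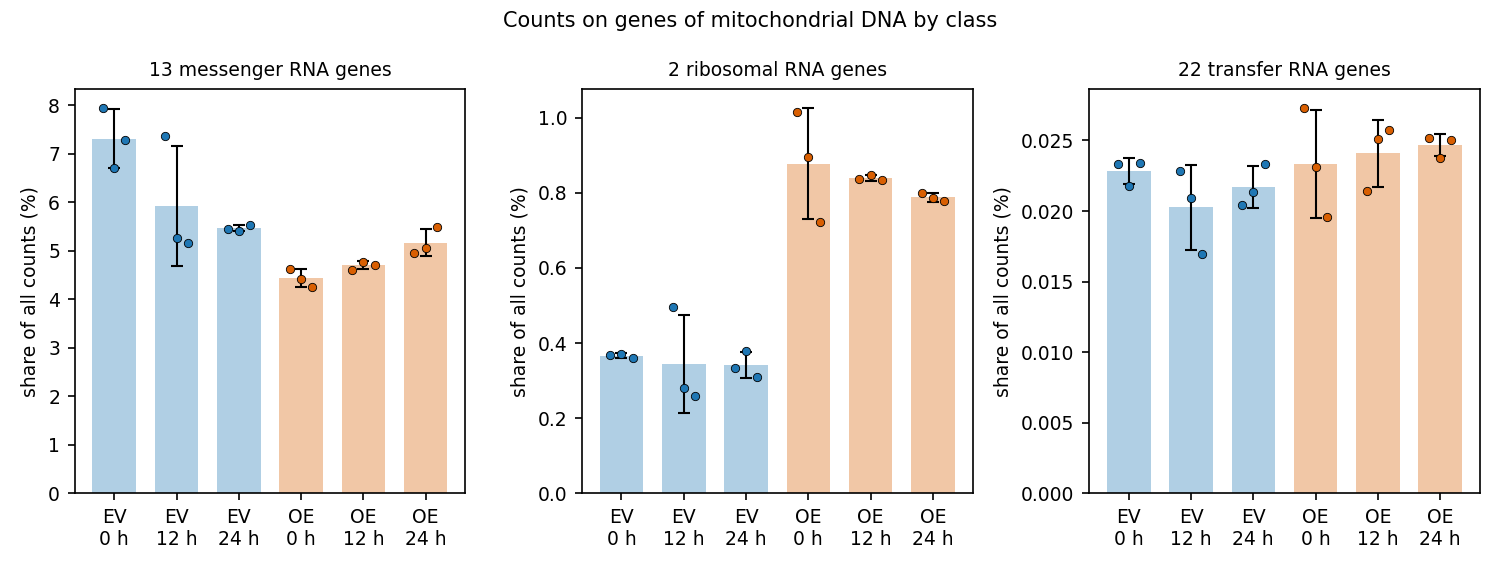
Share of all counts (%) that fell on the 13 mRNA, 2 rRNA and 22 tRNA genes of mitochondrial DNA, on axes that start at 0. Points are the 3 libraries of a condition, bars their mean and lines the SD. The mRNA share of the EV libraries at 24 h (5.41% to 5.53%) lies below that of the untreated ones (6.71% to 7.93%), and the rRNA share of every OE library (0.723% to 1.02%) lies above that of every EV library (0.259% to 0.495%).

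A trend over nuclear genes moved with this share in both lines, though not in every library. The genes had a mean of at least 0 on the log2 CPM scale (13539 genes in EV and 14789 in OE). For each library, the Spearman correlation over these genes between GC content and the deviation from the mean of its line was -0.58, -0.22 and -0.43 in untreated EV, -0.58, -0.21 and 0.64 at 12 h and 0.27, 0.61 and 0.42 at 24 h. In OE it was -0.58, 0.29 and 0.54 at 0 h, 0.54, 0.18 and 0.21 at 12 h and -0.28, -0.39 and -0.43 at 24 h. The 4 libraries with a mitochondrial share over 7% all had a negative value. So did the OE libraries at 24 h, which had the highest shares of that line. EV replicate 2 of 12 h also had a negative value (-0.21), but a share of 5.55%. OE replicate 1 of 0 h had the lowest value of its line (-0.58) and a share of 5.66%. The mitochondrial mRNA genes have a GC content of 39.6% to 47.7%. What part the trend has in the mitochondrial share was not tested. Fits with the trend as an offset are given beside some results and otherwise in the closing section on processing.

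**Figure D2:**
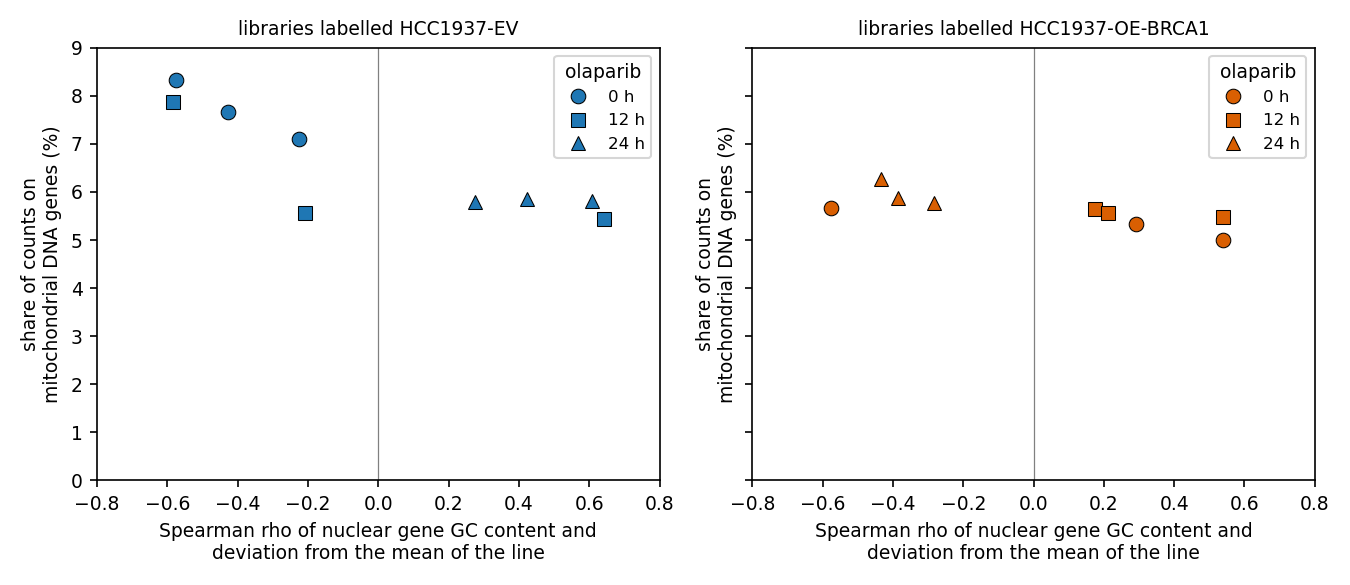
Share of counts on mitochondrial DNA genes (%, y axis) against the GC trend of each library over nuclear genes (Spearman rho, x axis), with EV libraries on the left and OE libraries on the right, and circles, squares and triangles for 0 h, 12 h and 24 h. The EV libraries over 7% lie at a rho of -0.22 or below and those at 24 h at a rho of 0.27 or above, while the OE libraries at 24 h lie at a rho of -0.28 or below.

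Per kilobase of gene, MT-CO1 or MT-CO2 had the highest mean in every condition. These mRNAs, which encode the catalytic core of complex IV, stood at 15259 ± 1543 and 11194 ± 999 RPKM (SD, n = 3) in untreated EV, where no MT-CO2 library reached the lowest MT-CO1 library. In the OE libraries the order was the reverse at each of the 3 times, with MT-CO2 at 9461 ± 673 and MT-CO1 at 7222 ± 365 RPKM at 0 h and no overlap. MT-ATP6, MT-CO3, MT-ND4 and MT-ND4L followed, with neighbours in this order mostly overlapping. Lowest among the mRNAs in all 6 conditions was MT-ATP8, which encodes a small subunit of ATP synthase, at 170 to 314 RPKM.

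MT-RNR2, the large rRNA, ranked 12th of the 15 mRNA and rRNA genes in untreated EV at 1852 ± 94.1 RPKM and 5th in untreated OE at 4418 ± 743 RPKM. MT-ND6, the complex I subunit of the light-strand transcript, had 1473 ± 281 RPKM in untreated EV and 1901 ± 195 RPKM in untreated OE, and lay above MT-ATP8 without overlap in every condition. The sources used here do not say whether the RNA was selected by poly(A) or depleted of rRNA, so rRNA and mRNA levels are set side by side only as counted.

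After 24 h of olaparib, 8 of the 33 tested genes were called in EV, 2 higher and 6 lower (24.2%), beside 13.7% of all 18335 genes tested (8.62% higher and 5.12% lower). Of the 13 mRNAs, 5 fell, none rose and 11 had a negative log2 fold change, with a median of -0.38 beside 0.00 over all genes. MT-ND2, a membrane subunit of complex I, had 4782, 3831 and 4107 CPM at 0 h and 2918, 2697 and 2690.5 CPM at 24 h. The 24 h libraries all lay below the untreated ones, and MT-ND2 fell by 0.61 ± 0.13 on the log2 scale (SE, adjusted p = 0.00712 by edgeR's quasi-likelihood test).

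MT-CO1, the catalytic subunit of complex IV, had 25768, 21031 and 23790 CPM at 0 h and 16711, 16790 and 16963 CPM at 24 h, again without overlap, and fell by 0.48 ± 0.11. Its 3 libraries at 24 h spanned a far narrower range than the 3 at 0 h. MT-CYB, the only complex III subunit that mitochondrial DNA encodes, had 3781, 3203 and 3451 CPM and then 2638, 2592 and 2530.1 CPM, and fell by 0.43 ± 0.10.

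MT-ND4L and MT-ND4, complex I subunits translated from 1 bicistronic mRNA, both fell. MT-ND4L had 3191, 2797 and 3157 CPM at 0 h and 1165, 1536 and 1924 CPM at 24 h, and fell by 0.98 ± 0.22, the largest fall among the mRNAs called in this comparison. MT-ND4 had 12407, 10085 and 11089 CPM at 0 h and 8379, 8400.3 and 8628 CPM at 24 h, and fell by 0.40 ± 0.11. Per 100 counts on MT-ND4 there were 25.7, 27.7 and 28.5 counts on MT-ND4L at 0 h and 13.9, 18.3 and 22.3 at 24 h, which did not overlap. The difference in this ratio did not pass its test (exact permutation test, two-sided, p = 0.1, the smallest that 3 against 3 allows, and adjusted p = 0.224 over 56 comparisons of ratios).

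The other 8 mRNAs did not pass. MT-ATP8 (log2 fold change -0.77 ± 0.31), MT-CO2 (-0.38 ± 0.14), MT-ND1 (-0.32 ± 0.12), MT-CO3 (-0.29 ± 0.13) and MT-ND5 (-0.22 ± 0.10) each lay lower in all 3 libraries at 24 h, and MT-ATP6 (-0.28 ± 0.12) overlapped. MT-ND3 (0.13 ± 0.11) and MT-ND6 (0.15 ± 0.14) had a positive sign and overlapped. Neither rRNA passed, MT-RNR1 at -0.35 ± 0.31 and MT-RNR2 at -0.03 ± 0.15. Over all tested members, 6 lay higher and 13 lower at 24 h without overlap, where 20.8% and 19.0% of all genes did.

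**Figure D3:**
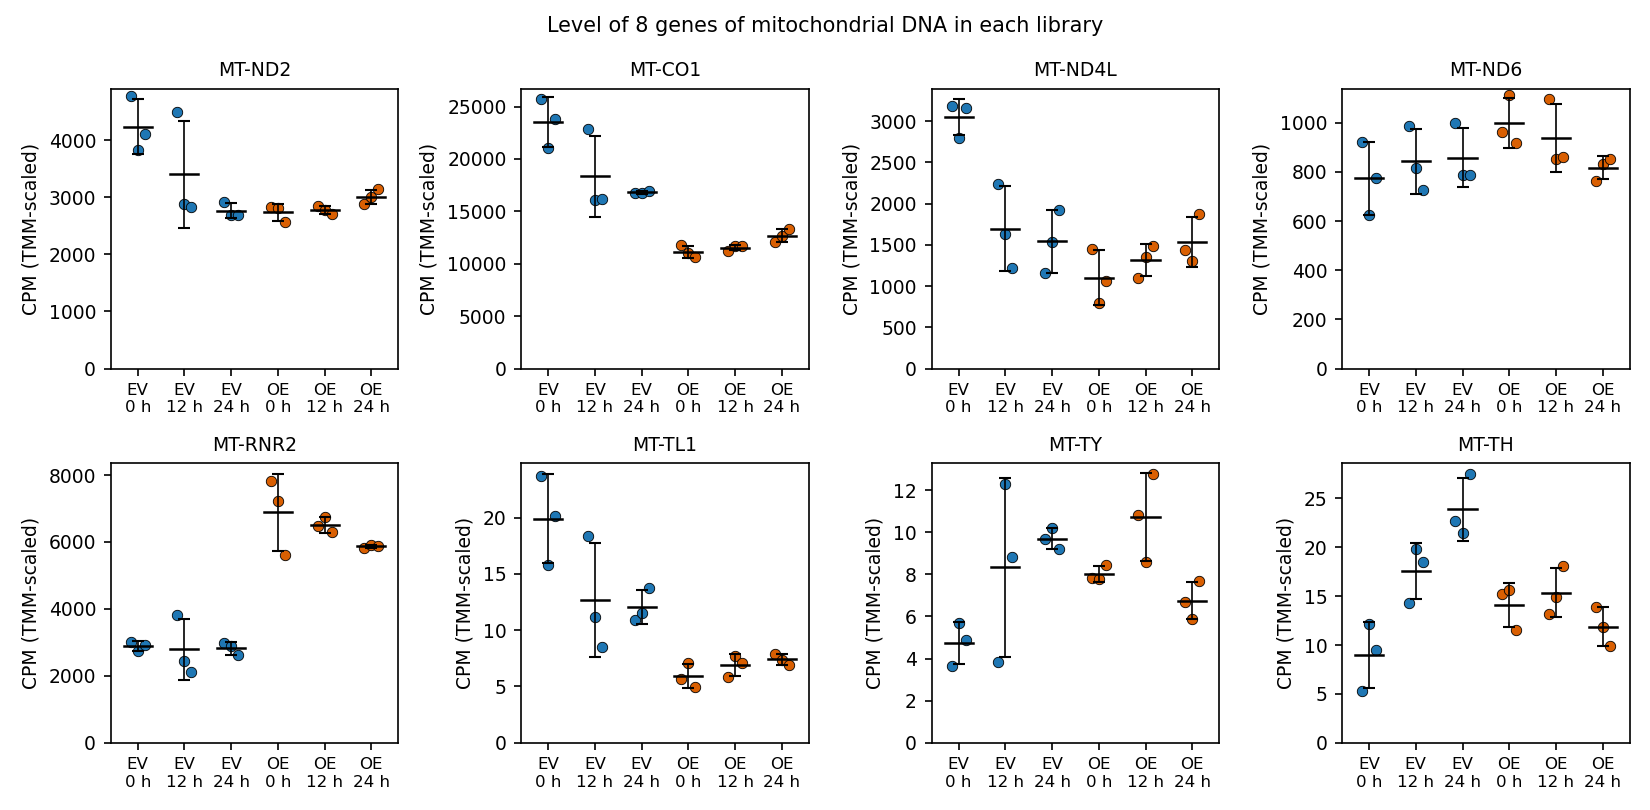
CPM (TMM-scaled, axes from 0) of 8 mitochondrial DNA genes in each library, with points for libraries, a bar for the mean and lines for the SD, in blue for EV and orange for OE. MT-ND2, MT-CO1, MT-ND4L and MT-TL1 lie lower, and MT-TY and MT-TH higher, in all EV libraries at 24 h than at 0 h, while no OE group of these 8 genes was called against OE at 0 h.

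Among the tRNAs of EV at 24 h, MT-TL1 fell and MT-TY and MT-TH rose. MT-TL1, which lies directly behind MT-RNR2 and holds the binding site of the termination factor MTERF1, had 23.7, 15.8 and 20.2 CPM at 0 h and 10.9, 11.5 and 13.8 CPM at 24 h, and fell by 0.72 ± 0.21 (adjusted p = 0.0301). MT-TH, which lies directly behind MT-ND4, had 5.34, 12.1 and 9.50 CPM at 0 h and 22.7, 21.5 and 27.5 CPM at 24 h, and rose by 1.41 ± 0.22 (adjusted p = 0.00114). MT-TY of the light-strand transcript had 3.67, 5.69 and 4.87 CPM at 0 h and 9.68, 10.2 and 9.23 CPM at 24 h, and rose by 1.03 ± 0.27 (adjusted p = 0.0186).

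None of these 3 tRNAs had overlapping groups. Thus MT-TH and its neighbour MT-ND4, on the same heavy-strand transcript, moved in opposite directions. Counts on tRNA genes were few beside those on mRNAs, and whether they came from mature tRNAs or from uncut precursors cannot be told apart. The other 15 tested tRNAs were not called, and 13 of the 18 had a positive log2 fold change, with a median of 0.55.

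The count of calls at 24 h depended on single libraries. It was 2 without EV replicate 1 of 0 h, 5 without replicate 3 of 0 h, and 4 without replicate 1 or replicate 2 of 24 h, and all genes called fell from 2520 to 462, 970, 738 and 708 in these fits. MT-TH was called in all 6 such fits, MT-CO1, MT-ND2 and MT-ND4L in 5, MT-CYB in 4, and MT-ND4, MT-TL1 and MT-TY in 2. With the GC and length trend as an offset, 4 genes were called higher and 10 lower, 9 of them mRNAs, and the mRNA median was -0.42.

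After 12 h of olaparib in EV, no mitochondrial DNA gene was called by edgeR (2 by DESeq2's Wald test, and 12 of 33 at an unadjusted p under 0.05, where 16.2% of all genes were), beside 0.0436% of all genes called. The mRNA median was -0.29 and 11 of 13 were negative. The 12 h libraries did not lie together. MT-CO1 had 22837 CPM in replicate 1 and 16064 and 16165 CPM in the other 2, and MT-ND2 had 4489 CPM beside 2887 and 2825. Replicate 1 thus lay among the untreated libraries for these genes. Without that library 14 genes were called, 3 higher and 11 lower, of which 10 were mRNAs with a median of -0.51 over the 13, and the calls over all genes were 462 in place of 8.

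MT-TH at 12 h had 14.3, 19.9 and 18.5 CPM, all above the 3 untreated libraries, at a log2 fold change of 0.97 ± 0.22 (adjusted p = 0.142). MT-ND4L had 2239, 1635 and 1219 CPM, all below the 3 untreated ones, at -0.84 ± 0.22 (adjusted p = 0.147). In MT-TY, replicate 1 with 3.84 CPM lay among the untreated libraries and the other 2 lay above them at 12.3 and 8.83 CPM.

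In OE, olaparib was followed by no call at either time. At 12 h the count was 0 of 33 by edgeR, by DESeq2's Wald test and at an unadjusted p under 0.05, beside 2.31% of all genes called and 11.7% at an unadjusted p under 0.05. At 24 h it was 0 by both tools, with 2 genes at an unadjusted p under 0.05, beside 8.26% of all genes called (4.71% higher and 3.55% lower) and 23.6% at an unadjusted p under 0.05. The 2 genes were MT-ND4L (log2 fold change 0.48 ± 0.22) and MT-CO3 (0.26 ± 0.13). MT-CO1 had 11756, 10994 and 10660 CPM at 0 h and 12061, 12617 and 13347 CPM at 24 h, which lay higher without overlap at 0.19 ± 0.11. Of the 13 mRNAs, 11 had a positive sign at 24 h, with a median of 0.08 beside 0.02 over all genes. With the GC and length trend as an offset, 5 of the 13 were negative and the median was 0.05. Without OE replicate 3 of 24 h 5 were negative (median 0.03), and without OE replicate 1 of 0 h 3 were (median 0.16). MT-ND6 had 964, 1113 and 917 CPM at 0 h and 763, 832 and 853 CPM at 24 h, at -0.29 ± 0.14, and was the mRNA with the lowest value. Without OE replicate 1 of 0 h, 1 gene was called at 24 h, and 3329 of all genes in place of 1515.

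**Figure D4:**
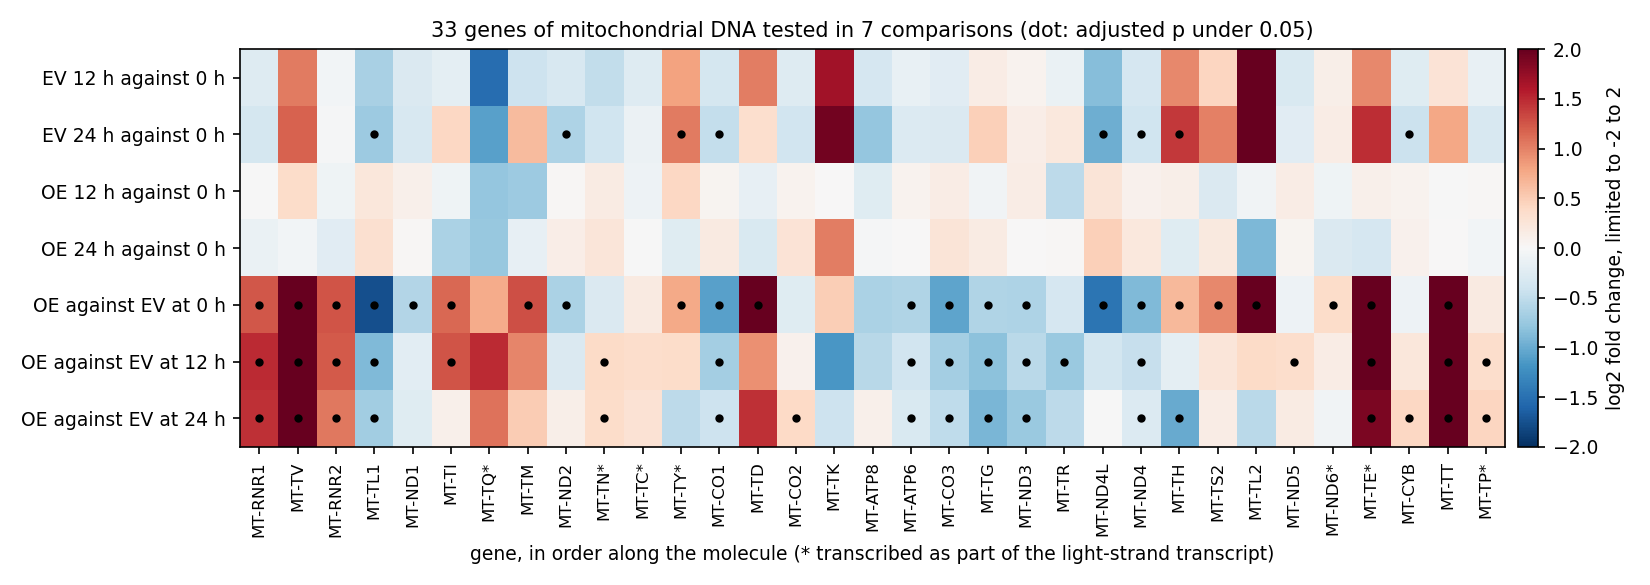
Log2 fold changes (colour, limited to -2 to 2) of the 33 tested genes, in their order along the molecule, in 7 comparisons (rows), where a dot marks an adjusted p under 0.05 and an asterisk a gene of the light-strand transcript. The row of EV at 24 h holds 8 dots and the rows of EV at 12 h and of OE at 12 h and 24 h hold none, and the rRNAs are higher in OE than in EV at each time.

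The difference between the lines in the response to 24 h of olaparib was itself called for 12 of 33 genes (36.4%), 9 higher in OE and 3 lower, beside 19.4% of all genes (8.16% higher and 11.2% lower). It covered 7 of the 13 mRNAs, all with a less negative or more positive change in OE. MT-ND4L changed by -0.98 in EV and by 0.48 in OE (difference 1.46 ± 0.31, adjusted p = 0.00364), and MT-ND2 by -0.61 and 0.14 (0.75 ± 0.19). For MT-CO1 the difference was 0.67 ± 0.16, for MT-CO2 0.65 ± 0.20, for MT-ND4 0.61 ± 0.15, for MT-CO3 0.55 ± 0.18 and for MT-CYB 0.51 ± 0.15. MT-CO2 and MT-CO3 were called here although neither passed within either line.

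Of the tRNAs, MT-TL1 (difference 1.05 ± 0.32) and MT-TN (0.64 ± 0.22) were higher in OE in this sense, and MT-TH (-1.66 ± 0.31, adjusted p = 0.00192), MT-TY (-1.28 ± 0.38) and MT-TL2 (-3.09 ± 0.95) were lower. MT-TL2 rested on 9, 38 and 44 counts over the 3 EV libraries at 0 h, 12 h and 24 h, with 1 untreated library at 0 counts, and on 54, 51 and 29 counts in OE. The number of calls was 6 without EV replicate 1 of 0 h and 6 without OE replicate 3 of 0 h, and 7 without EV replicate 2 or OE replicate 3 of 24 h, and all genes called fell from 3554 to 2188, 2621, 2318 and 2109 in these fits. MT-CO1, MT-ND2, MT-ND4, MT-ND4L and MT-TH stayed called in all 12 fits that left out 1 library. With the GC offset, 8 mRNAs were called higher and 1 lower, with a median of 0.57 beside 0.55 without it. At 12 h the difference was called for none (1 by DESeq2's Wald test, and 11 at an unadjusted p under 0.05, where 14.7% of all genes were), beside 0.518% of all genes, for 8 without EV replicate 1 of 12 h (174 of all genes in place of 95) and for 2 without OE replicate 1 of 0 h (772 of all genes).

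**Figure D5:**
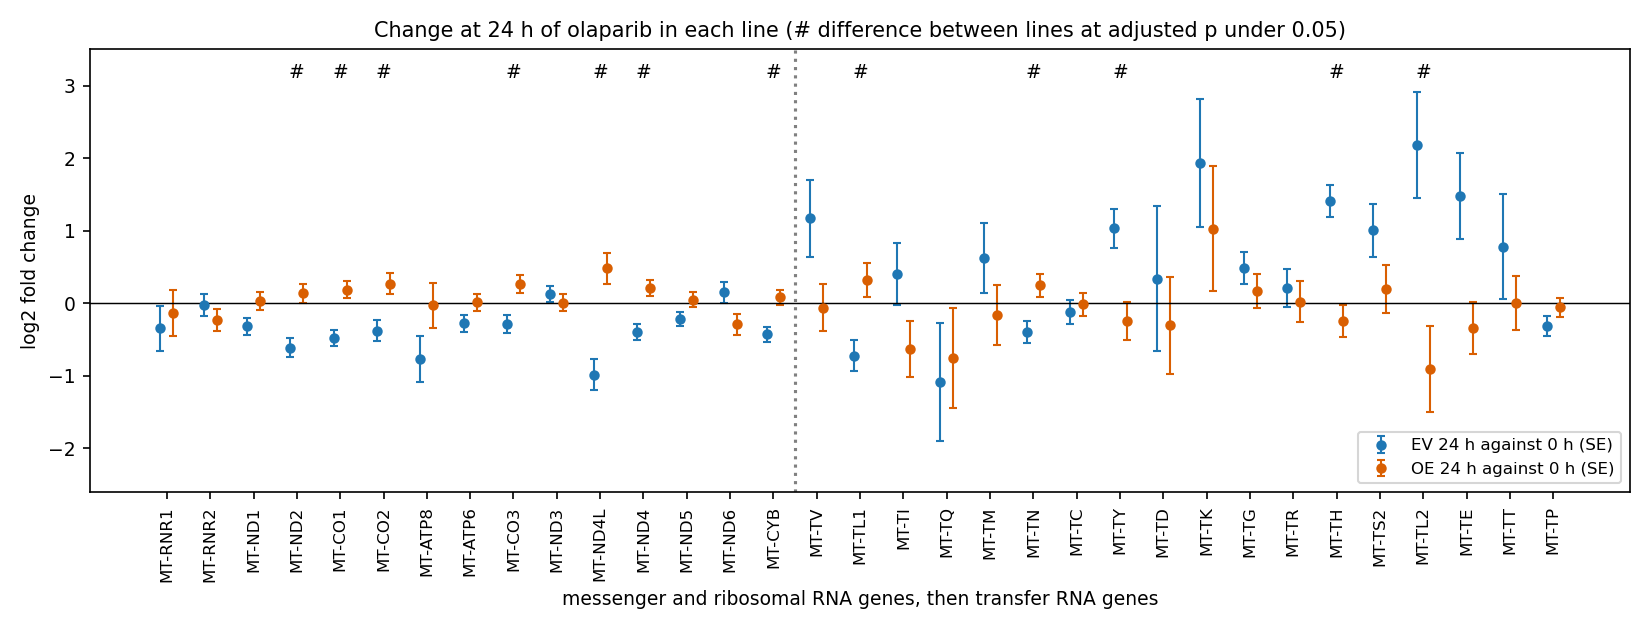
Log2 fold change at 24 h against 0 h (y axis, ± SE) in EV (blue) and OE (orange) for mRNA and rRNA genes on the left and tRNA genes on the right of the dotted line, where # marks the 12 genes whose change differed between the lines at an adjusted p under 0.05. For the 7 marked mRNAs the EV value is below 0 and the OE value above it, and for MT-TY, MT-TH and MT-TL2 the reverse.

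Between the untreated lines, 23 of 33 genes were called (69.7%), 13 higher and 10 lower in OE, which is near the 72.7% of all genes called, 39.4% higher and 33.3% lower. The median of all genes was 0.11 higher in OE at 0 h, 0.08 at 12 h and 0.12 at 24 h, and the values below are to be read beside that shift. Both rRNAs were higher in OE, all 12 heavy-strand mRNAs had a negative sign and 8 of them were called, and MT-ND6 of the light-strand transcript was called higher. The tRNAs went both ways, with 10 called higher and 2 lower of 18.

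MT-RNR2 had 3020.4, 2730 and 2910 CPM in untreated EV and 7834, 7232 and 5597 CPM in untreated OE, without overlap (log2 fold change 1.25 ± 0.16, adjusted p = 3.19e-07). MT-RNR1, the small rRNA, had 721, 982 and 730 CPM in EV and 2117, 1988 and 1678 CPM in OE (1.25 ± 0.32, adjusted p = 0.00148). Both stayed higher in OE at 12 h (1.49 for MT-RNR1 and 1.22 for MT-RNR2) and at 24 h (1.46 and 1.05).

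MT-CO1 in untreated OE had 11756, 10994 and 10660 CPM, below all 3 untreated EV libraries, at -1.08 ± 0.11 against EV (adjusted p = 3.07e-08). MT-CO3, MT-ND4 and MT-ND4L were also lower at -1.06 ± 0.13, -0.89 ± 0.11 and -1.47 ± 0.22, and MT-ND2, MT-ND3, MT-ATP6 and MT-ND1 at -0.59 to -0.63. MT-CO2 (-0.24 ± 0.14), MT-CYB (-0.10 ± 0.10), MT-ND5 (-0.10 ± 0.10) and MT-ATP8 (-0.64 ± 0.31) did not pass. At 12 h the mRNAs held 1 call higher and 5 lower, and at 24 h 2 higher (MT-CO2 and MT-CYB) and 5 lower, of 17 members called at each time (51.5%), beside 72.9% (38.8% higher and 34.1% lower) and 73.9% (39.9% higher and 34.0% lower) of all genes. The mRNA median was -0.62 at 0 h, -0.37 at 12 h and -0.07 at 24 h. Without EV replicate 1 of 12 h, the median at 12 h was -0.04, with 3 mRNAs called higher and 4 lower.

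MT-ND6 had 921, 626 and 774 CPM in untreated EV and 964, 1113 and 917 CPM in untreated OE, which overlapped by 1 library (0.37 ± 0.14, adjusted p = 0.0251), and it was not called at 12 h (0.15 ± 0.14) or at 24 h (-0.07 ± 0.14). The call at 0 h was lost in 3 of the 6 fits that left out 1 library, those without EV replicate 2, EV replicate 3 or OE replicate 2, with log2 fold changes of 0.24 to 0.51 over the 6. As a share of mitochondrial mRNA counts, MT-ND6 made up 1.14%, 0.933% and 1.05% in untreated EV and 1.77%, 1.43% and 1.43% at 24 h. In OE the share was 2.13%, 2.45% and 2.14% at 0 h and 1.60%, 1.70% and 1.61% at 24 h. The share was thus higher at 24 h than at 0 h in EV and lower in OE, both without overlap, but neither difference passed its test, which cannot go below 0.1 (exact permutation test, p = 0.1, adjusted p = 0.224).

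The largest differences between the untreated lines were in tRNAs of few counts. MT-TT, which lies directly behind MT-CYB, had 6 counts over the 3 untreated EV libraries and 89 over the 3 OE libraries, a ratio of 14.9 (95% exact Clopper-Pearson interval 6.57 to 41.6). MT-TE, on the light-strand transcript next to MT-ND6, had 16 and 211 counts, a ratio of 13.2 (7.95 to 23.6). MT-TV, which lies between the 2 rRNAs, had 10 and 96 counts, a ratio of 9.63 (5.01 to 20.7). These intervals cover counting error only, and all 3 stayed higher in OE at 12 h and 24 h. MT-TL1 went the other way, with 5.66, 7.08 and 4.98 CPM in untreated OE beside 15.8 to 23.7 CPM in EV (-1.75 ± 0.23, adjusted p = 5.65e-07), and stayed lower at 12 h (-0.88 ± 0.23) and 24 h (-0.70 ± 0.22).

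Of the other tRNAs at 0 h, MT-TI, MT-TM, MT-TY, MT-TD, MT-TH, MT-TS2 and MT-TL2 were called higher and MT-TG lower, of which MT-TI, MT-TD and MT-TH overlapped between the lines. MT-TN, MT-TC, MT-TQ, MT-TK, MT-TR and MT-TP were not called. MT-TN, MT-TC and MT-TP of the light-strand transcript had the highest levels per kilobase of all tested tRNA genes in all 6 conditions, at 972 ± 141, 853 ± 81.1 and 700.2 ± 115 RPKM in untreated EV (SD, n = 3). These genes lie opposite transcribed stretches of the other precursor, and since the sources used here do not give the strand setting of the counting, reads of a gene and of the antisense transcript cannot be told apart.

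Nuclear copies of mitochondrial DNA limit the values of some mRNAs. Of 94 such copies in the table, 6 had a mean of at least 10 counts, and 3 of these lie together on chromosome 1. MTATP6P1 (chr1:633696-634376) was 98.5% identical to MT-ATP6, MTCO1P12 (chr1:631074-632616) 98.6% to MT-CO1 and MTND2P28 (chr1:629640-630683) 98.4% to MT-ND2. Of the stretches of 100 bases in MT-CO1, 27.9% occurred unchanged in a nuclear transcript, as did 26.1% in MT-ND2 and 11.9% in MT-ATP6, with smaller shares in MT-ND1, MT-CO3 and MT-CO2, but none in the other mRNAs and rRNAs. The read length is not given in the sources used here, and of the stretches of 50 bases 49.5% in MT-CO1, 43.6% in MT-ND2 and 46.7% in MT-ATP6 occurred in a nuclear transcript, as did 17.9% in MT-ND6, 14.0% in MT-RNR2, 30.6% in MT-CO3, 28.98% in MT-CO2, 22.1% in MT-ND1, 8.23% in MT-ATP8, 4.76% in MT-ND5, 3.54% in MT-ND4 and 1.19% in MT-CYB. At both lengths none was found for MT-ND3, MT-ND4L or MT-RNR1. Levels of genes with such stretches are uncertain by the reads that could go to either place.

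For each 100 counts on MT-ATP6, MTATP6P1 had 8.17 to 12.6 counts in EV libraries and 5.09 to 7.98 in OE libraries. MTCO1P12 had 0.509 to 0.885 counts per 100 on MT-CO1 in EV and 0.120 to 0.234 in OE, and was lower in untreated OE by a log2 fold change of -2.86 ± 0.16, whereas MT-CO1 differed by -1.08. After 24 h in EV, none of the 6 copies was called, with MTCO1P12 at -0.05 ± 0.15, MTND2P28 at -0.35 ± 0.14 and MTATP6P1 at -0.54 ± 0.19. MTND2P28 was called higher in OE at 12 h (0.55 ± 0.14), where MT-ND2 had 0.03, and for the difference between the lines in the response at 24 h (0.71 ± 0.20, adjusted p = 0.0176), where MT-ND2 had 0.75. What part reads of the copies have in the values of their parent genes was not tested.

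The nuclear genes that maintain and express mitochondrial DNA were described from a list of 66, all of which were tested. In EV none was called at 12 h and 8 were called at 24 h, 5 higher and 3 lower, and these 12.1% lie near the 13.7% of all genes. MRPL12, a mitochondrial ribosomal protein that also binds the mitochondrial RNA polymerase, rose by 1.89 ± 0.38 (13.6, 21.2 and 15.2 CPM at 0 h and 72.7, 63.5 and 49.7 CPM at 24 h). The nuclear receptor ESRRA, a regulator of mitochondrial biogenesis, rose by 0.68 ± 0.17, and by 0.27 with the GC offset. MRM3, an rRNA methyltransferase, rose by 0.48 ± 0.14, and GABPA, RNASEH1 and PPRC1 fell by 0.55, 0.49 and 0.34.

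In OE none of the 66 was called at 12 h and 6 were at 24 h, 3 in each direction, and these 9.09% lie near the 8.26% of all genes. PNPT1, the exoribonuclease that removes mitochondrial double-stranded RNA, had 107, 91.1 and 70.0 CPM at 0 h and 129, 130 and 130 CPM at 24 h, and rose by 0.53 ± 0.13. RRM2B, which supplies nucleotides, and MGME1, a nuclease of mitochondrial DNA, rose by 0.54 ± 0.14 and 0.50 ± 0.10, and ESRRA, TOP1MT and PUS1 fell by 0.59, 0.55 and 0.51. The response at 24 h differed between the lines for 18 of the 66 (27.3%, beside 19.4% of all genes), with PNPT1 at 0.80 ± 0.18 and RRM2B at 0.76 ± 0.19 higher in OE, and MRPL12 at -3.10 ± 0.55, ESRRA at -1.26 ± 0.24 (-0.67 with the GC offset) and PUS1 at -0.93 ± 0.21 lower.

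Between the untreated lines 46 of the 66 were called (69.7%, near the 72.7% of all genes), 8 higher and 38 lower in OE where 39.4% and 33.3% of all genes were, with a median of -0.56 beside 0.11 over all genes. PPARGC1A, a coactivator of mitochondrial biogenesis, had 528, 505 and 528 counts in untreated EV and none in any of the 9 OE libraries, so that EV was at least 519-fold higher against a floor of 3 counts over the OE group. POLG2 and TWNK, the accessory subunit and the helicase of the mitochondrial DNA replisome, were lower in OE by -2.17 ± 0.11 and -1.97 ± 0.12, and ESRRA (1.55 ± 0.17), PRIMPOL (1.48 ± 0.15) and TOP1MT (1.18 ± 0.12) were higher. At 12 h and 24 h, 7 and 8 were higher and 47 and 44 were lower (81.8% and 78.8% in all, beside 72.9% and 73.9% of all genes).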

How the data were processed

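The authors extracted total RNA with TRIzol, made libraries with a NEBNext Ultra II RNA kit and deposited raw counts for each gene, whole and not normalized. The submitters' processing notes name HISAT2, featureCounts, DESeq2 and GRCh38 (hg38). Versions, strand setting, read length and the choice of poly(A) selection or rRNA depletion are not given in the sources used here. The 18 deposited tables of single libraries equalled the columns of the joint table.

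Counts were fitted with edgeR 4.0.16 (R 4.3.3, limma 3.58.1): TMM, filterByExpr by condition (18335 genes), 1 mean per condition over 18 libraries, the quasi-likelihood test and Benjamini-Hochberg adjustment over all genes tested, called at an adjusted p under 0.05. The biological coefficient of variation was 12.9%. Levels are CPM on TMM-scaled library sizes, and RPKM divides these by gene length. Alternatives were DESeq2 1.42.0 (size factors, and the Wald test), normalization on nuclear genes, other count filters (none, and at least 10 counts in every library), the compared conditions alone, a replicate block, a GC content and length offset (spline with 4 degrees of freedom), each library left out and, for the share of counts, counts on genes with a symbol as the denominator and the share without rRNA. The fits were tested on simulated data. No pair of replicates agreed within sampling noise.

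Every mRNA and rRNA gene and each tested tRNA was named, with up to 3 rises and 3 falls per comparison from the nuclear list. The members and lists were chosen with earlier results of these data known. A marker gene of the cell line is not reported here.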

Additional observations from a re-analysis of the deposited data

Results flagged for a closer look

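The changes of 12 of 33 mitochondrial DNA genes (36.4%) at 24 h of olaparib differed between the lines by the test of the difference itself (edgeR's quasi-likelihood test, adjusted p under 0.05). Of all 18335 genes tested, 19.4% did so. Fits that left out 1 library called 6 to 13 of the 33. Each value below is the log2 fold change in OE minus that in EV. It was 1.46 for MT-ND4L, 1.05 for MT-TL1, 0.75 for MT-ND2, 0.67 for MT-CO1, 0.65 for MT-CO2, 0.64 for MT-TN, 0.61 for MT-ND4, 0.55 for MT-CO3 and 0.51 for MT-CYB. It was -3.09 for MT-TL2, -1.66 for MT-TH and -1.28 for MT-TY. MT-ND2, MT-CO1, MT-CO2 and MT-CO3 share stretches of 100 bases, and MT-ND4 and MT-CYB of 50 bases, with nuclear transcripts, and MT-TL2 rests on few counts.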

How the results depend on the processing

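No called value changed sign under any alternative run. Calls over all genes are given in brackets, and 33 members were tested unless stated. For EV at 12 h, 0 members were called (8 of all genes). DESeq2's Wald test called 2 (276), the GC offset 3 (161) and the GC offset with the replicate block 3 (129). No filter on low counts gave 9 of 37 (818), and fits without 1 library 0 to 14 (1 to 462). For EV at 24 h, with 8 called (2520), the GC offset called 14 (2612) and with the block 13 (2545). No filter gave 16 of 37 (3072), the compared conditions alone 18 of 27 (5173), and fits without 1 library 2 to 8 (462 to 2227). For OE at 12 h every fit called 0 (257 to 1273). For OE at 24 h, with 0 called (1515), the GC offset called 1 (3254) and with the block 1 (3180). No filter gave 2 of 37 (2137), and fits without 1 library 0 to 1 (644 to 3329). For the difference in response at 12 h, 0 were called (95). The Wald test called 1 (357), the GC offset 5 (670), with the block 5 (631), and no filter 3 of 37 (644). Fits without 1 library called 0 to 8 (49 to 772). At 24 h, with 12 called (3554), such fits called 6 to 13 (2062 to 5502). Between the lines, fits without 1 library called 18 to 23 (12866 to 13446) at 0 h and 15 to 20 (12822 to 13324) at 12 h. At 24 h they called 14 to 16 (13043 to 13263). With the GC offset, the calls between the lines were 26 (14011) at 0 h, 19 (14096) at 12 h and 17 (14307) at 24 h. The cause of these moves was not tested, except that fits without 1 library hold fewer samples.

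The replicate numbers did not pair the libraries. Deviations of libraries with the same number correlated at -0.23 to 0.30 over 45 pairs (median -0.004), and 6 of 18 libraries correlated best with their own number. With the replicate block and calls over all genes in brackets, EV had 0 (1) at 12 h and 8 (2435) at 24 h. OE had 0 (408) and 0 (1378). Between the lines the counts were 24 (13334), 18 (13344) and 16 (13543) at 0 h, 12 h and 24 h. For the differences in response they were 0 (97) at 12 h and 11 (3500) at 24 h. Depth limits the tRNA genes, such as MT-TT with 6 and MT-TL2 with 9 counts over the 3 untreated EV libraries.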
